A study of Mus musculus with 2 samples.

Results

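Binding sites of the transcription factor Runx3 were examined in natural killer (NK) cells at 8 genes of interleukin-2 and interleukin-15 (IL-15) receptor chains, STAT factors, feedback and survival: Il2rb, Il2ra, Il15ra, Stat5a, Stat5b, Stat3, Cish and Bcl2. The members were the peaks of the deposited Runx3 list whose midpoint lay in 1 of 5 genomic windows drawn around these genes, and 31 of the 19647 listed peaks met this rule. The study made 1 chromatin immunoprecipitation sequencing (ChIP-seq) library with a laboratory-made polyclonal antibody against Runx3 and 1 with rabbit non-immune serum (NIS) as the control. The protocol names 40000000 splenic NK cells, taken from wild-type ICR mice, an outbred strain, given IL-15/Ra complexes by 2 injections 2 days apart, with cells enriched by negative selection and sorted as NKp46+. All cells were thus IL-15 treated, and untreated cells were not analysed here. The number, age and sex of the mice were not given in the sources used here. A peak list holds no expression values, so the sorted cell type could not be checked against its markers.

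IL-15 keeps NK cells alive and makes them divide and mature. It is presented by the alpha chain encoded by Il15ra and signals through the beta chain encoded by Il2rb together with the common gamma chain. Janus kinases at these chains phosphorylate STAT5, which enters the nucleus and activates genes such as Cish, an inhibitor that dampens the same receptor, and Bcl2, which protects against apoptosis. Runx3 is a Runt-domain factor of NK cells and cytotoxic T cells that binds DNA with its partner Cbfb.

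The reference promoters of these genes are shown first for the letters that RUNX and STAT factors are known to recognise. RefSeq promoter sequences of 250 bases before to 50 after the gene start (GRCm38.p6) were matched by symbol for 7 of the 8 genes, in 10 promoters, all but Il2rb. The RUNX letters TGTGGT or TGCGGT, on either strand, stood in 2 of the 10 promoters, those of Il2ra and the first of Stat5a, against 22.4% of the 32851 promoters in the table. The STAT letters TTCNNNGAA, which read alike on both strands, stood in 1 of the 10, the Cish promoter, where 2 copies lay between bases 1 and 20, counted from the start as base 1, against 8.30% of all promoters. The 3 stretches with these matches are printed 5′ to 3′ in the direction of the gene, all on the plus strand, with the matched letters in capitals. They lie at chr2:11642694-11642753 (Il2ra, 66 to 71 bases before the start), chr11:100859661-100859690 (Stat5a, bases 18 to 23 counted from the start) and chr9:107296654-107296683 (Cish).
Il2ra: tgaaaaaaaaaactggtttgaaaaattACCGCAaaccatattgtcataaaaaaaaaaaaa
Stat5a: gactgtgatgtgACCACAgtgaggtcctgg
Cish: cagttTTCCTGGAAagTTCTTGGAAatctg
In Il2ra and Stat5a the capitals are the reverse complement of TGCGGT and TGTGGT. A match of letters is not a binding site, and these GRCm38 positions cannot be set beside the peaks, whose positions are in the build mm9. For the same reason no peak was placed in a promoter, exon or intron, and within a window that holds several genes no peak was assigned to one of them.

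The windows covered 830 kb and their 31 peaks (95% counting interval 21.1 to 44.0) were unevenly shared among them. The Il2rb window held 12 peaks, the window of Stat5b, Stat5a and Stat3 held 9, the Bcl2 window 6, and the windows of Il2ra with Il15ra and of Cish 2 each. Together they had 37.3 peaks per Mb, against 8.85 per Mb on the rest of the same 5 chromosomes, a ratio of 4.22 (95% interval 2.86 to 5.995). Without the Il2rb window the ratio was 2.94 (1.77 to 4.60). The windows were drawn around genes, while the rest includes long stretches without peaks and was not matched for genes. Whether windows around other genes reach such ratios was not tested. The intervals on counts and ratios cover counting error only and treat peaks as independent, which neighbouring peaks are not. The list comes from 1 unreplicated library and gives no number of reads, so how deeply each peak was sequenced is unknown and no p-value is given.

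**Figure D1:**
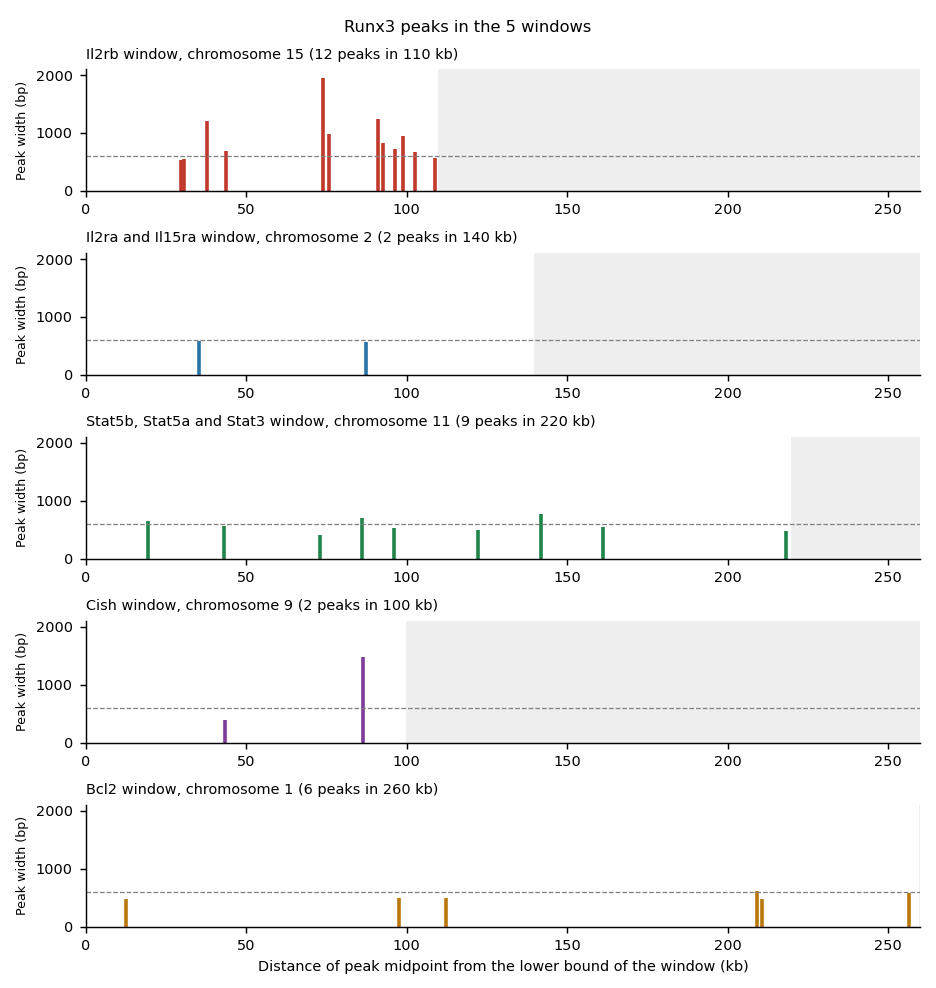
Every Runx3 peak in the 5 windows, drawn as a line at the distance of its midpoint from the lower bound of the window (x axis, kb) with its width as height (y axis, bp). The dashed line is the median width of all listed peaks (604 bp) and grey areas lie beyond a window's end. The Il2rb window holds 12 peaks with the widest at 1954 bp, and the window of Il2ra and Il15ra holds 2.

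Il2rb encodes the receptor chain shared by IL-2 and IL-15. Its window on chromosome 15, from 78250000 to 78360000 (mm9), held 109 peaks per Mb (95% interval 56.4 to 191), 13.4 times the 8.13 per Mb of the rest of the chromosome (interval 6.90 to 23.6). Peaks covered 9.90% of the window and 0.547% of the rest. The widest peak in the window measured 1954 bp, from 78322876 to 78324829. It was the widest of all 825 peaks on chromosome 15 and number 46 by width in the whole list. The widest on chromosome 15 outside the window measured 1823 bp.

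The next widest peaks in the Il2rb window ran from 78340460 to 78341701 (1242 bp) and from 78287353 to 78288561 (1209 bp). Of the 12 peaks, 3 exceeded 1000 bp, against 87 of 813 (10.7%) on the rest of chromosome 15, and 9 reached the list median of 604 bp. Those 9 are 75% of the window's peaks (exact binomial 95% interval 42.8 to 94.5), against 50.7% on the rest of chromosome 15, a share that lies within that interval. The median width was 779.5 bp, against 605 bp on the rest of the chromosome. The narrowest of the 12 measured 524 bp (78279575 to 78280098), which was also the first in the window.

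The peaks in the Il2rb window stood close together. None lay in the first 29.8 kb of the window up to the midpoint of the first peak, and 8 of the 12 fell in its upper 50%. Neighbouring midpoints were a median of 3.76 kb apart, against 21.8 kb on chromosome 15 as a whole, and 9 of the 11 distances were 10 kb or less. With 12 peaks in 110 kb the distances could only be short on average, so this spacing largely restates the density. The closest pair, separated by 354 bp, consisted of the widest peak and one of 983 bp from 78325184 to 78326166. Further pairs were separated by 383 bp and 527 bp, so 3 of the 11 gaps were below 1000 bp. Whether such pairs are 1 bound region reported in parts was not tested, and joining them left 9 peaks. Gaps this short also occurred elsewhere: the same joining lowered the density on the rest of the 5 chromosomes from 8.85 to 8.03 per Mb. Chained at distances of up to 10 kb, the peaks formed stretches of 4 peaks (78279575 to 78294022), 2 peaks (78322876 to 78326166) and 7 peaks (78340460 to 78367350). The seventh peak of the last stretch lay beyond the window's bound. Stretches of 7 or more made up 94 of the 13450 in the list (0.699%, single peaks counted as stretches).

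To set each window beside others of its size, its chromosome was tiled outward from the window in equal tiles. The windows were drawn around genes, and the tiles were not matched for the genes they hold. Of the 908 other tiles of 110 kb on chromosome 15, 2 held at least as many peaks as the Il2rb window (0.220%), 67.5% held none and the mean was 0.891. Both fuller tiles lay close by. The adjoining tile from 78360001 to 78470000 held 15 peaks, and that from 78690001 to 78800000 held 13. The 3 fullest tiles of this size on the chromosome were therefore the Il2rb window, its upper neighbour and a tile 330 kb beyond the window. On the lower side the nearest 4 tiles held 0 or 1 peak each. By RefSeq gene order (GRCm38.p6), Il2rb stands between Tmprss6 and C1qtnf6, and Sstr3 and Rac2 follow, so other genes may lie in the window and in its crowded neighbour.

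**Figure D2:**
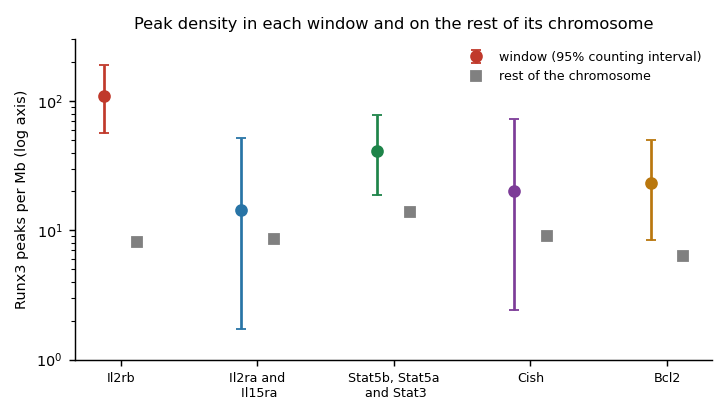
Runx3 peaks per Mb (log axis) in each window (coloured circles, with exact 95% Poisson counting intervals) and on the rest of its chromosome (grey squares). The Il2rb window stands at 109 per Mb against 8.13, and the intervals of the Il2ra and Il15ra window and of the Cish window include the value of the rest. The rest was not matched for genes.

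Il2ra encodes the alpha chain that gives the IL-2 receptor its high affinity, and Il15ra the chain that binds and presents IL-15. These adjacent genes shared a window on chromosome 2, from 11540000 to 11680000, with 2 peaks. They ran from 11574911 to 11575498 (588 bp) and from 11627108 to 11627669 (562 bp), both narrower than the list median. A stretch of 51.6 kb without peaks lay between them. Measured between midpoints, neither had another peak within 50 kb. Measured between peak edges, 49.8 kb was free below the first. The density of 14.3 per Mb was 1.67 times the 8.54 of the rest of the chromosome, with an interval of 0.202 to 6.05 that includes 1.

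Of the other 1272 tiles of 140 kb on chromosome 2, 339 (26.7%) held at least 2 peaks, 59.7% held none and the mean was 1.19. The 4 tiles below the window held more, with 7, 3, 4 and 6 peaks going away from it, and the tile above it held 3. Just outside the bounds, a peak of 561 bp had its midpoint 15.1 kb below the lower bound, and a peak of 557 bp had its midpoint 19.2 kb above the upper bound. Widening the window by 50 kb on both sides brought its count to 6. By gene order (GRCm38.p6), Rbm17 stands before Il2ra and Fbh1 after Il15ra, so this window too may hold other genes.

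Stat5a and Stat5b encode the 2 closely related forms of STAT5, the main carrier of the IL-15 signal, and Stat3 a relative that answers chiefly to IL-6, IL-10 and IL-21. The 3 genes are neighbours in the order Stat5b, Stat5a, Stat3, and their window on chromosome 11, from 100580000 to 100800000, held 9 peaks. The density of 40.9 per Mb (interval 18.7 to 77.7) was 2.93 times that of the rest of the chromosome, 14.0 per Mb, with an interval of 1.34 to 5.58.

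The widths of these 9 peaks lay between 406 bp (100652890 to 100653295) and 765 bp (100721374 to 100722138). Their median was 552 bp, against 614 bp on the rest of chromosome 11, 3 of them reached the list median, and none exceeded 1000 bp, against 11.1% on the rest of the chromosome. The first ran from 100599283 to 100599938 and the last from 100798043 to 100798513. They stood farther apart than in the Il2rb window: 0 of the 8 neighbouring pairs had midpoints within 10 kb. The closest pair (peaks starting at 100665599 and 100675738) was just beyond this, with midpoints 10.05 kb apart and 9430 bp free between the peaks. The median distance of 21.5 kb compared with 17.9 kb on the whole chromosome. The longest stretch without peaks ran for 56.6 kb from 100741492 to 100798042. The upper bound cut between 2 close peaks: 1 peak with its midpoint 1.72 kb inside counted as a member, while a peak of 917 bp with its midpoint 0.827 kb outside (100800369 to 100801285), wider than any of the 9, did not.

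Chromosome 11 carries many Runx3 peaks, and among its 537 other tiles of 220 kb, 64 (11.9%) held 9 or more. The adjoining tiles held 7 peaks below and 10 above the window, and those next to them 6 and 5. The count in the STAT window thus lay between those of its 2 direct neighbours. By gene order (GRCm38.p6), Ghdc stands before Stat5b and Cavin1 after Stat3, and they may lie in the window or beside it.

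**Figure D3:**
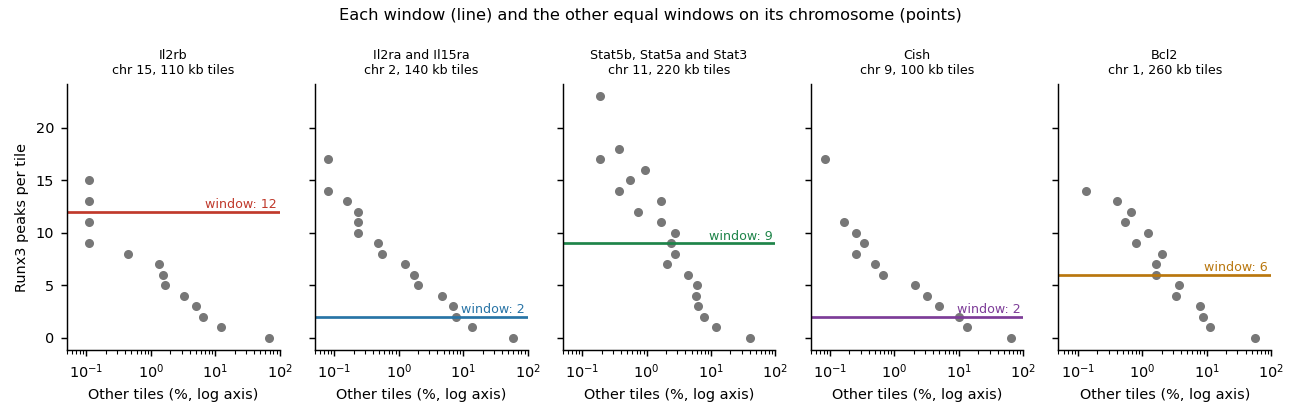
Peaks in each window (coloured line) and the share of the other equal tiles on its chromosome that hold each number of peaks (points; x axis in %, log scale; y axis, peaks per tile). At Il2rb 2 points, with 13 and 15 peaks, lie above the line, while at Cish 22.4% of tiles hold as many peaks as the window or more.

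Cish, a member of the SOCS family, encodes an inhibitor of cytokine signalling that STAT5 induces. Its window on chromosome 9, from 107150000 to 107250000, held 2 peaks of very unlike width. One ran from 107193249 to 107193647 and at 399 bp was the narrowest of the 31; only 5.25% of all listed peaks were as narrow or narrower. The other ran from 107235728 to 107237207 and measured 1480 bp, number 15 by width of 1086 on the chromosome. Among the 31 it was wider than any except the widest in the Il2rb window. They were separated by 42.1 kb.

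The density at Cish, 20 per Mb, was 2.23 times the 8.99 of the rest of chromosome 9, with an interval of 0.269 to 8.06 that includes 1. Among 1205 other tiles of 100 kb, 270 (22.4%) held at least 2 peaks. The pair stood alone in a wide peak-free region, with 399 kb free below the first peak and 192 kb free above the second. The 3 tiles below and the 1 above the window held 0 peaks, and the third tile above held 9. By gene order (GRCm38.p6) Cish stands between Mapkapk3 and Hemk1, so other genes may lie in its window.

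Bcl2 encodes the protein that holds back the mitochondrial pathway of apoptosis. Its window on chromosome 1, from 108400000 to 108660000, was the longest and held 6 peaks. The density of 23.1 per Mb (interval 8.47 to 50.2) was 3.67 times the 6.28 of the rest of the chromosome, with an interval of 1.34 to 8.02. All 6 were narrow to middling: the widest measured 614 bp (108608818 to 108609431) and the narrowest 477 bp (108610433 to 108610909). Those 2 were also the closest pair, separated by 1001 bp. The median width was 492 bp, against 600 bp on the rest of chromosome 1, and 5 of the 6 lay below the list median.

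The first peak in the Bcl2 window ran from 108412241 to 108412721 and the last from 108656019 to 108656606. A stretch of 96.2 kb without a peak lay between the third and the fourth (108512599 to 108608817). Of 738 other tiles of 260 kb, 67 (9.08%) held at least 6 peaks. The window lay at the border of a large empty region. The tile below held 0 peaks and the nearest peak below was 343 kb from the first. The tile above held 1 peak, from 108693033 to 108693554, and the 43 tiles after it held none. That gap of 11.5 Mb was the longest between neighbouring peaks on chromosome 1. By gene order (GRCm38.p6) Bcl2 stands between Phlpp1 and Kdsr, and Vps4b and Serpinb5 follow.

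**Figure D4:**
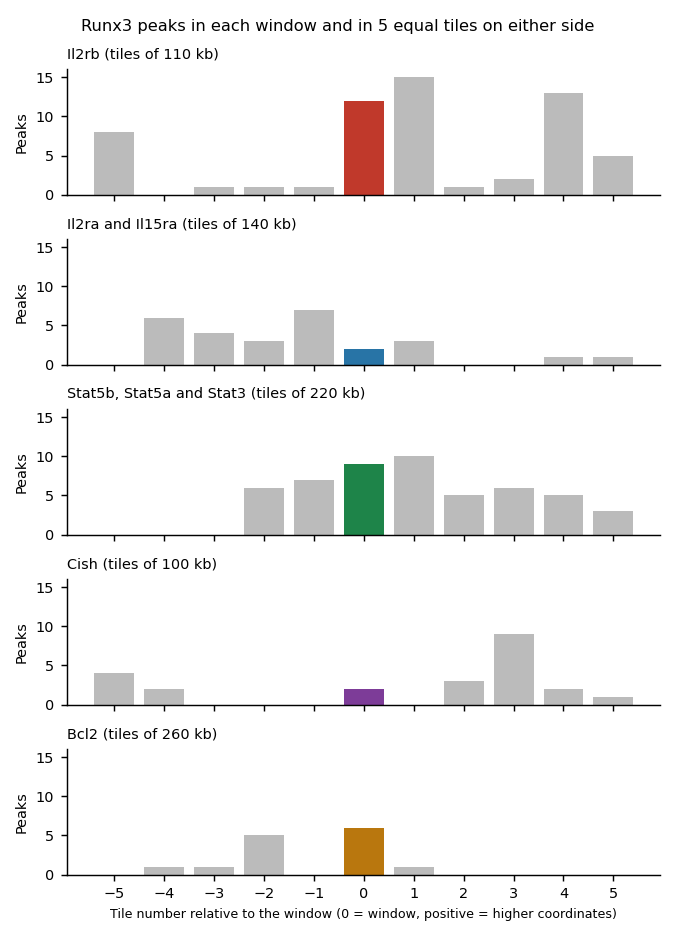
Runx3 peaks in each window (coloured bar, tile 0) and in the 5 equal tiles on either side (grey bars; x axis, tile number, positive toward higher coordinates; y axis, peaks). The window of Stat5b, Stat5a and Stat3 has between 5 and 10 peaks in the 2 tiles on each side, the Cish window has 0 in both adjoining tiles, and the 4 tiles farthest above Bcl2 hold 0.

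Over all 31 peaks, widths lay close to those elsewhere, although the windows differed among themselves. The median was 588 bp (order-statistic 95% interval 535 to 709), against 607 bp for the 6279 peaks on the rest of the 5 chromosomes, and 4 peaks (12.9%, interval 3.63 to 29.8) exceeded 1000 bp, against 10.4%. Of these 4 wide peaks 3 were in the Il2rb window and 1 in the Cish window. In the 4 windows other than Il2rb, 14 of 19 peaks lay below the list median, and their median width was 552 bp.

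Spacing also differed between the Il2rb window and the others, but it is tied to the counts. Only pairs with both peaks in the same window entered, so their distances were capped by its length, unlike those on the rest. Of the 26 neighbouring pairs with both peaks in a window, 10 (38.5%, interval 20.2 to 59.4) were at most 10 kb apart, against 32.0% on the rest of the chromosomes. The Il2rb window gave 9 of these 10 pairs and Bcl2 the other. Of the 31 peaks, 16 had no other peak within 10 kb, none of them in the Il2rb window. Lone peaks were common in the whole list too, where 72.5% of the 13450 stretches were single peaks. That share counts stretches and not peaks, so it cannot be set directly beside the 16 of 31. Whether spacing and width in the Il2rb window differ from the other windows beyond the spread between libraries cannot be told with 1 library.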

How the data were processed

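Per the labels' protocols, fixed chromatin (formaldehyde at 1%) was sonicated to fragments near 200 bp, and ELAND placed the 50 bp reads on the mouse genome. The submitters' processing notes name CASAVA 1.8.2 and the build mm9. Not given in the sources used here were the peak caller, its threshold, the use of the control library and whether the list is complete. For every peak the authors deposited chromosome, start and end, with no score or height; starts are printed counted from 1. No sample columns were left out, and values of the control library were not used here.

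The 5 windows, the genes and the descriptions were chosen with earlier results of these data known. A peak was a member if its midpoint lay in a window. In each window the widest, narrowest, first and last peak and the closest pair were named. Density was compared with the rest of the chromosome from its first to its last peak, and counts with whole equal tiles. Neither the rest nor the tiles were matched for genes. Intervals are exact Poisson, exact binomial (Clopper-Pearson) or order-statistic intervals at 95%. Counting was tested on simulated lists. Python 3.11.15, numpy 2.4.6 and scipy 1.17.1 were used. No genome or annotation of mm9 was used here, so motifs in peaks, gene parts and peak counts for further pathway genes and cell type markers were not analysed here. Alternatives were the wider peaks, joined peaks, any overlap, widened windows, other tiles and each window left out.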

Additional observations from a re-analysis of the deposited data

How the results depend on the processing

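Of 74 alternative values, 52 stayed within the interval of the value reported, or within 1.5 times a count, and 22 moved. The density ratio lay between 2.94 (Il2rb left out) and 4.83 (other autosomes as the rest). Restricting the list to peaks of at least the median width left 14 of the 31 peaks by construction, 9 of them at Il2rb and 0 at Il2ra and Il15ra, which then has no rank. The share of other tiles with at least as many peaks became 0% at Il2rb, 22.9% at the STAT genes, 26.9% at Cish and 35.2% at Bcl2 among these wider peaks. Among tiles with at least 1 peak it was 66.2% at Il2ra and Il15ra, 20% at the STAT genes, 62.8% at Cish and 20.6% at Bcl2, since empty tiles were left out. With tiles of all autosomes it was 4.68% at the STAT genes, 18.8% at Cish and 13.1% at Bcl2, and 8.57% at the STAT genes once peaks up to 1000 bp apart were joined; the cause was not tested. The share of neighbouring pairs within 20 kb was 61.5% (45.8% on the rest), and it includes the pairs within 10 kb by construction. Without Il2rb the share within 10 kb was 6.67%, 1 of 15 pairs, against 32.0% on the rest. With TGTGGT alone, 1 of the 10 promoters matched. No paired analysis was possible because the Runx3 list comes from a single library. The unknown read depth leaves missed weak sites uncounted.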
